A study of Mus musculus with 3 samples.

Results

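The entry of a T cell into division is set in the G1 phase of the cell cycle, and 10 genes of that control were followed here in CD8+ T cells that lack the receptor for transforming growth factor β (TGF-β). They are the cyclin genes Ccnd2, Ccnd3 and Ccne1, the kinase genes Cdk4 and Cdk6, the inhibitor genes Cdkn1a, Cdkn1b, Cdkn2c and Cdkn2d, and Rbl2. The genes were taken by name, as every probe set whose platform annotation gives exactly 1 symbol and that symbol is on the list. All 10 genes were found, with 26 probe sets among 45037 that are not array controls and 10 among 18193 named genes. RNA was hybridised to 3 Affymetrix mouse 430 2.0 arrays, 1 per group. The NK1.1+ mutant and NK1.1− mutant groups, which the labels call KO, were cells sorted by presence or absence of NK1.1, a natural killer cell marker, from Tgfbr2fl/fl x CD4-Cre mice 15 to 17 days old. The control group was CD8+ cells of Tgfbr2fl/wt x CD4-Cre littermates, so the control animals also carried Cre and 1 floxed allele. The labels call the control cells NK1.1− in the title and total CD8+ cells in a passage of the design text, and they do not say how many mice gave each RNA. Cre under the Cd4 promoter acts in developing T cells of both the CD4+ and the CD8+ lineage, so receptor loss was not limited to the cells profiled.

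In G1, D-type cyclins bind the kinases CDK4 and CDK6 and start the phosphorylation of the pocket proteins, among them the product of Rbl2, which otherwise hold E2F transcription factors in check. Cyclin E with CDK2 completes that step, and the cell passes into S phase. Inhibitors of the INK4 class (Cdkn2c, Cdkn2d) bind CDK4 and CDK6 alone, and inhibitors of the CIP/KIP class (Cdkn1a, Cdkn1b) bind whole cyclin-kinase complexes. Resting T cells keep p27, the product of Cdkn1b, and lose it when they are stimulated to divide. TGF-β is known for arresting many cell types in G1.

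Values are probe set intensities on a linear scale, as deposited. Each gene was read by its probe set of highest mean over the 3 arrays, and its other probe sets are given beside it. Values under a background level of 9.66, the 95th percentile of 145 probe sets of receptors and structural proteins of other tissues, were raised to that level before log2 differences were taken. A gene was called higher or lower at a difference of at least 2-fold (1 on the log2 scale). With 1 array per group, no spread between mice is known, no test was possible, and precision is limited by the number of arrays. The spread that can be measured is that among probe sets of the same gene, whose log2 differences had a pooled SD of 0.42 for NK1.1− mutant against control, 0.85 for NK1.1+ mutant against control and 0.76 between the mutant arrays. In bulk RNA, fewer cells with a transcript and less of it per cell cannot be told apart.

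The NK1.1+ mutant array stood apart from the other arrays. For Actb, the 3′ probe set read 81.9 times the 5′ one on it, against 12.3 times on the NK1.1− mutant array and 6.02 times on the control array, while for Gapdh the figures were 10.8, 26.7 and 17.8 in the same order. Relative to control, 4 of 8 measured housekeeping genes were called lower on it and 0 on the NK1.1− mutant array. Over all measured genes, 5.56% were called lower and 8.05% higher on the NK1.1− mutant array, against 22.9% and 9.85% on the NK1.1+ mutant array. Centring every array on the median of genes measured on all 3 would add 0.44 to its log2 differences from control and 0.48 to those from the NK1.1− mutant array. The summed value of 15 mononuclear phagocyte markers was 11745 on the NK1.1+ mutant array, 1186 on the NK1.1− mutant array and 445 on the control array, with 12, 9 and 8 markers at or above the background level. Csf1r, the receptor that defines the lineage, read 7666, 54.5 and 30.5, while Cd14, Itgam and Ms4a7 were below the level on all 3 arrays. On the NK1.1− mutant array 3 of 9 measured phagocyte markers were called above control, among them Ccr2, also an effector T cell gene, at 815 against 226, and 4 of 5 measured NK cell markers were called above control there (median log2 difference 1.81), with Klrc1 at 224 against 27.9 and Klre1 at 80.2 against 11.7. On that array 1 of 4 dendritic cell markers was also higher, Itgax at 187 against 9.88, of 4 B cell markers Cd22 was higher, at 359 against 82.7, and 2 were lower, and the 1 measured erythroid marker, Slc4a1, was lower. The part of these markers in the differences of that array was not tested. On the NK1.1+ mutant array 3 of 4 measured dendritic cell markers, 2 of 5 B cell markers and 5 of 6 NK cell markers were also called above control. There 1 B cell marker was called below control, and 0 of 1 measured erythroid markers was called. Among the B cell markers Jchain read 2282 on the NK1.1+ mutant, 16.0 on the NK1.1− mutant and 15.9 on the control array. Cd79a, Pax5 and Blnk were below the level on all 3 arrays. The 8 CD8 T cell markers on the array were at or above the level on every array and summed to 7077, 12455 and 15381 in the same order. Of these 8, 6 were called lower in NK1.1+ mutant than in control cells and 0 higher (median -1.70), 4 were lower than on the NK1.1− mutant array (median -1.05, and 1 of 8 with median centring), and 0 were called between NK1.1− mutant and control. Cd3g read 1185, 2805 and 4146, Cd8a 524, 1027 and 1786, and Thy1, called in no comparison, 2983, 3969 and 3269. Their part in the differences of the NK1.1+ mutant array was not tested. Tgfbr2, the targeted gene, read 1808, 1271 and 2634 by its brightest probe set, but the deleted exon is not given in the labels, so these values do not check the deletion.

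Receptor-deficient NK1.1− cells carried more transcript of cyclin E1, CDK6 and the inhibitors p21 and p18, the products of Cdkn1a and Cdkn2c, and less of cyclin D2 than control cells. Of the 10 genes, 4 were called higher (Ccne1, Cdk6, Cdkn1a and Cdkn2c) and 1 lower (Ccnd2), where 13.6% of 10047 measured genes were called in either direction, 8.05% higher and 5.56% lower. The median log2 difference of the 10 genes was 0.21, beside 0.01 over all measured genes. Receptor-deficient NK1.1+ cells had 1 gene called higher than control (Cdkn1a) and 1 lower (Cdk4). In that comparison 32.7% of 10633 measured genes were called, 9.85% higher and 22.9% lower. Set against NK1.1− mutant cells, NK1.1+ mutant cells had 5 genes called lower (Ccne1, Cdk4, Cdk6, Cdkn1a and Cdkn2c) and 1 higher (Cdkn1b), beside 27.8% of 10625 genes called, 6.53% higher and 21.3% lower. The median of the 10 genes was -0.02 for NK1.1+ mutant against control, beside -0.17 over all measured genes, and -0.79 between the mutant arrays, beside -0.24. The first of these turned to 0.43 with median centring and 0.26 with quantile normalization, and the second was -0.31 and -0.54. The 3 comparisons share arrays in pairs, so a low or high value on 1 array enters 2 of them.

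**Figure D1:**
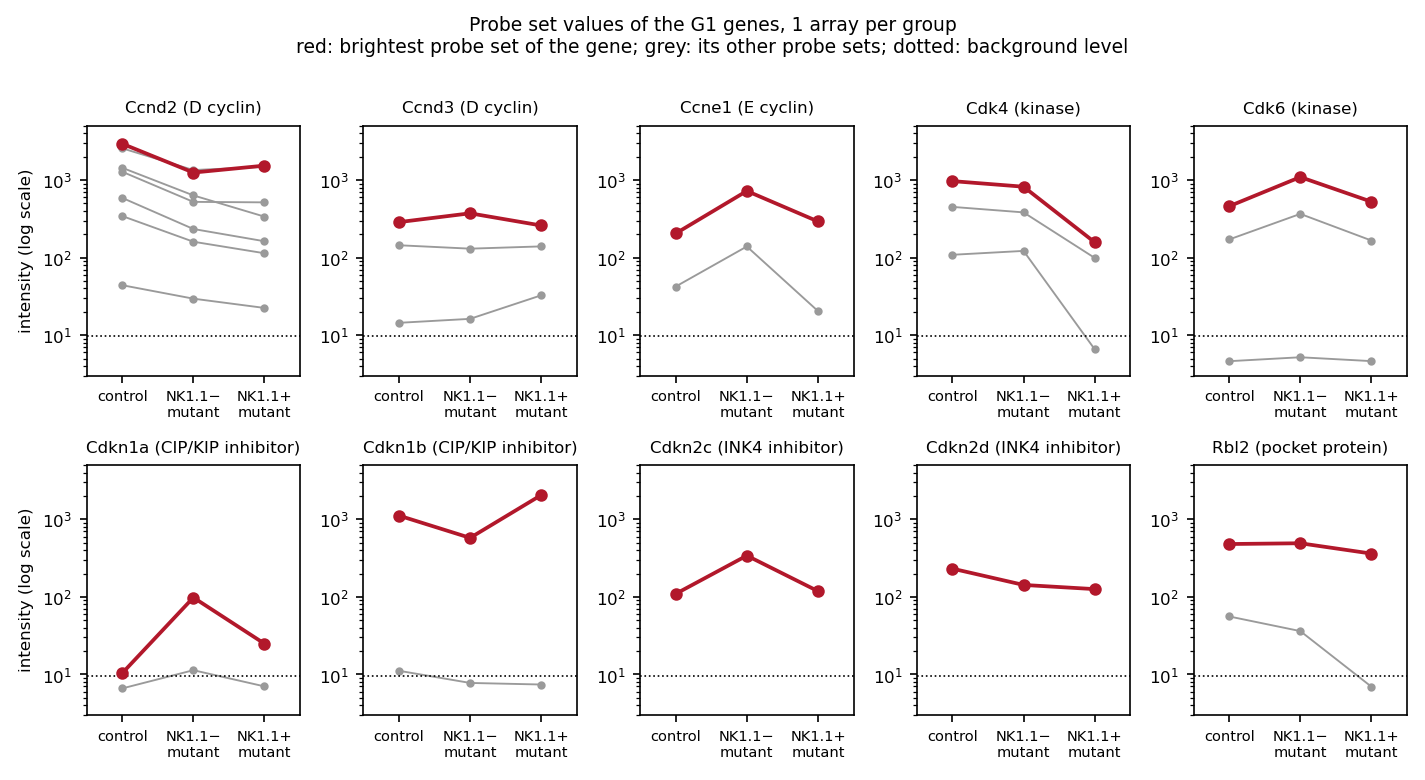
Intensity of every probe set of the 10 genes (log axis) on the control, NK1.1− mutant and NK1.1+ mutant arrays, 1 array per group, with the brightest probe set of each gene in red, its other probe sets in grey and the background level of 9.66 dotted. Ccne1, Cdk6, Cdkn1a and Cdkn2c peak on the NK1.1− mutant array, Cdkn1b is lowest there by its brightest probe set, and all 3 Cdk4 probe sets are lowest on the NK1.1+ mutant array.

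The 4 genes called higher in NK1.1− mutant cells are those whose upstream sequence is shown here, to set side by side the letters in front of genes that were high on the same array. RefSeq start sites of assembly GRCm38.p6 matched 9 of the 10 genes (Ccnd2 was not matched), with 12 windows of 250 bases before a start, and 3 genes, Ccnd3, Cdkn1a and Cdkn2c, had more than 1 start. For Cdkn1a and Cdkn2c the window printed is the one of 2 that holds the letters marked. Capitals mark the letters GCGGGA or their reverse complement, the core of many E2F sites, and in Cdkn1a the letters GAACATGTC or their reverse complement, a version of 1 arm of a p53 site. Both were chosen after the windows had been read. Each is written 5′ to 3′ in the direction of the gene.
Ccne1 promoter, chr7:38107491-38107740, minus strand: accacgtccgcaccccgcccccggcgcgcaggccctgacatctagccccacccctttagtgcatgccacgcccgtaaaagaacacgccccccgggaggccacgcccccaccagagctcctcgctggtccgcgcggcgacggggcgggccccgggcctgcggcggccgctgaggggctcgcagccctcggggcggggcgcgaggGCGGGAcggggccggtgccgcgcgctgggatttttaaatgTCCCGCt
Cdk6 promoter, chr5:3343643-3343892, plus strand: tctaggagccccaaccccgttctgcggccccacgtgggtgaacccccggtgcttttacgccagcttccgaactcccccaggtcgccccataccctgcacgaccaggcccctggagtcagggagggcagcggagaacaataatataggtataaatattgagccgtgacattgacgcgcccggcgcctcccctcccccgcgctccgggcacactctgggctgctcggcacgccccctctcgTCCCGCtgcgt
Cdkn2c promoter, chr4:109666757-109667006, minus strand: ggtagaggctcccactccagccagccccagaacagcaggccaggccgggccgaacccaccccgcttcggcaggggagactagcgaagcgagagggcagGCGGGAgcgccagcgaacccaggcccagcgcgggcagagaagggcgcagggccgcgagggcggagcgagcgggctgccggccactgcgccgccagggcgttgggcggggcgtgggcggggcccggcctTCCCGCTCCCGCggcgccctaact
Cdkn1a promoter, chr17:29090729-29090978, plus strand: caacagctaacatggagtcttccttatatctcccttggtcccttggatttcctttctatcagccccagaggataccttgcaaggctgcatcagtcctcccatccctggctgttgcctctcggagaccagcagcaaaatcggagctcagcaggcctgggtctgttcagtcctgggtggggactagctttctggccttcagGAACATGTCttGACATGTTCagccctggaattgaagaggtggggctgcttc

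The E2F core letters stood 2 times in the Ccne1 window, 1 time in that of Cdk6 and 3 times in the Cdkn2c window printed, and 0 times in the second Cdkn2c window, chr4:109665373-109665622. Across both strands, 4 of the 12 windows of the G1 genes held them, the remaining one being that of Cdkn2d, beside 16.9% of all 32851 windows in the table. The p53 letters stood 2 times in the Cdkn1a window printed, on opposite strands, 0 times in the second Cdkn1a window, chr17:29093519-29093768, and in 0.11% of all windows. The longer E2F sites TTTCGCGC, TTTGGCGC, TTTCCCGC and TTTGCCGC were found in 0 of the 12 windows and in 1.86% of all, and the SMAD site GTCTAGAC in 0 and in 0.17%. The FOXO site GTAAACA stood in 1 window, of Ccnd3, and in 3.17% of all. The NF-Y box CCAAT stood in 3 of the 12 windows, of Ccnd3, Cdkn1b and Cdkn2d, and in 33.8% of all. These are matches of letters and describe the windows only. The E2F core and p53 letters were chosen after these windows had been read. Their shares beside those of all windows are therefore no evidence that the letters are more common here. The windows were not matched for base composition.

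Ccnd2, encoding the cyclin D2 that T cells use with CDK4 and CDK6 early in G1, was the only D-type cyclin gene called in any of the 3 comparisons. Its brightest probe set (1455956_x_at) read 1537 on the NK1.1+ mutant array, 1251 on the NK1.1− mutant array and 2943 on the control array. Both mutant values lay below the control value, the difference being 2.35-fold for NK1.1− mutant cells, past the 2-fold call, and 1.92-fold for NK1.1+ mutant cells, short of it. The 7 Ccnd2 probe sets all read lower than control on both mutant arrays, by 1.49-fold to 2.52-fold in NK1.1− mutant cells and by 1.73-fold to 4.27-fold in NK1.1+ mutant cells. Of these 7, 5 passed 2-fold in NK1.1− mutant cells and 4 in NK1.1+ mutant cells. With probe sets without a suffix preferred, the NK1.1− mutant difference was -0.93 on the log2 scale and no longer called, while the mean of all probe sets gave -1.37 in NK1.1+ mutant cells, which was called. Between the mutant arrays no Ccnd2 probe set reached 2-fold, with 2 higher and 5 lower on the NK1.1+ mutant array.

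Ccnd3, encoding cyclin D3, which drives the expansion of early thymocytes, read 259.7 in NK1.1+ mutant, 373 in NK1.1− mutant and 287 in control cells. The values lay within 1.44-fold of each other. A dim Ccnd3 probe set (1444323_at) read 32.7, 16.2 and 14.4 and was 2.26-fold above control in NK1.1+ mutant cells, while the remaining one differed by at most 1.11-fold among the arrays. The log2 difference of the brightest probe set in NK1.1+ mutant cells was -0.15 from control and turned to 0.30 with median centring and to 0.13 with quantile normalization. Ccnd1, the remaining D-type cyclin gene and not among the 10, was above the level only on the NK1.1+ mutant array, at 11.7.

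Ccne1, encoding cyclin E1, the partner of CDK2 at the entry into S phase, read 293 in NK1.1+ mutant, 724 in NK1.1− mutant and 205 in control cells. The NK1.1− mutant array was the high one, 3.53-fold above control, with 2.98% of measured genes further above control. The second Ccne1 probe set (1416492_at) read 20.5, 139 and 42.4 in the same order and was 3.29-fold above control in NK1.1− mutant cells. Both probe sets were lower on the NK1.1+ mutant than on the NK1.1− mutant array, by 2.47-fold and 6.80-fold. By the first, the difference between the mutant arrays was -1.31 on the log2 scale, and with median centring it was -0.82 and not called. They disagreed on NK1.1+ mutant against control, where the first was 1.43-fold higher and the second 2.07-fold lower. The related gene Ccne2, from the list of other G1 machinery, read 123, 409 and 88.4 and was 4.62-fold higher in NK1.1− mutant than in control cells.

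Cdk4, encoding a kinase that pairs with D cyclins, was low on the NK1.1+ mutant array by every probe set. Its brightest probe set (1422441_x_at) read 158 in NK1.1+ mutant, 822 in NK1.1− mutant and 970 in control cells. NK1.1+ mutant cells were 6.15-fold below control and 5.21-fold below NK1.1− mutant cells, and NK1.1− mutant cells differed from control by 1.18-fold. Over the 3 probe sets the NK1.1+ mutant value was 4.55-fold to 11.3-fold below control, the last a lower bound, since 1422440_at read 6.57 on that array and 109 on the control array. Of all measured genes, 2.37% were further below control in NK1.1+ mutant cells. The call held under all 9 alternative settings, with log2 differences of -3.49 to -2.18. Some of these could not change it. Both changes of the level left the value of the brightest probe set as it was, and a lower fold cannot remove a call. The 3′ to 5′ ratio of Actb, the phagocyte markers and the low housekeeping genes moved with the same array, and their part in the low Cdk4 value was not tested. The 3′ to 5′ ratio of Gapdh went the other way and was lowest on that array, at 10.8.

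Cdk6, encoding the other kinase that D cyclins activate, was called higher in NK1.1− mutant cells, where Cdk4 was not called. It read 526 in NK1.1+ mutant, 1094 in NK1.1− mutant and 460 in control cells by its brightest probe set, and 166, 367 and 172 by the second (1435338_at). The NK1.1− mutant array was high by both, 2.38-fold and 2.14-fold above control. NK1.1+ mutant cells were within 1.14-fold of control by both probe sets and 2.08-fold and 2.21-fold below NK1.1− mutant cells. The remaining probe set was below the level on all arrays, and when it was averaged in, the NK1.1− mutant difference from control was 0.84 on the log2 scale and not called. The difference between the mutant arrays, -1.06, was -0.57 with median centring and -0.83 with quantile normalization, both under 2-fold. Cdk2, the cyclin E partner, read 50.2, 75.6 and 66.2 and was called in no comparison.

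**Figure D2:**
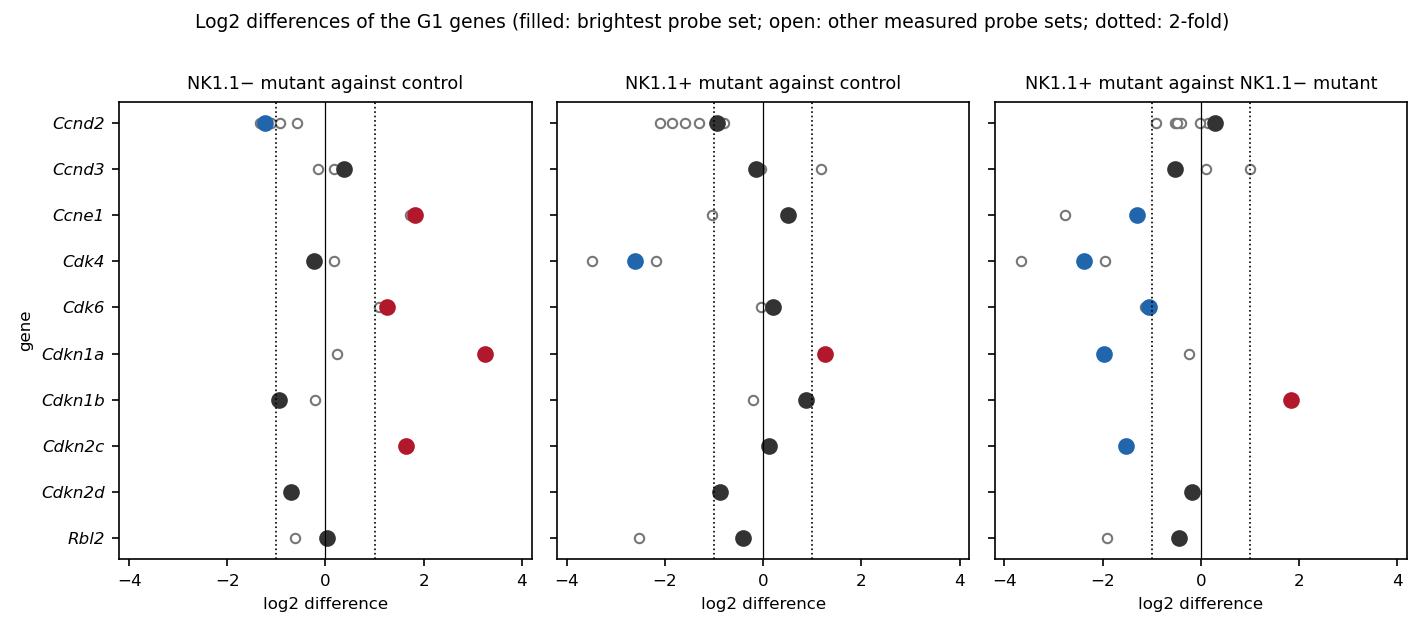
Log2 differences (horizontal axis) of the 10 genes in the 3 comparisons, filled points for the brightest probe set (red called higher, blue called lower, black not called) and open points for other measured probe sets, with dotted lines at 2-fold. Open and filled points lie close together for Ccne1 and Cdk6 in NK1.1− mutant against control and apart for Cdkn1a, Rbl2 and, in NK1.1+ mutant against control, Ccne1.

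Cdkn1a, encoding p21, which binds cyclin-kinase complexes and is induced by p53 and other signals, had the largest difference from control of the 10 genes in NK1.1− mutant cells. Its brightest probe set (1424638_at) read 24.9 in NK1.1+ mutant, 98.3 in NK1.1− mutant and 10.4 in control cells. NK1.1− mutant cells were 9.46-fold above control, with 0.40% of measured genes further above it, and NK1.1+ mutant cells 2.40-fold above. The control value was barely above the background level of 9.66, so both folds rest on a dim reading. The second probe set (1421679_a_at) was above the level on the NK1.1− mutant array only, at 11.4. With the level raised to the 75th percentile over all probe sets, the log2 differences from control were 0.86 in NK1.1− mutant and 0.00 in NK1.1+ mutant cells, neither of them called, and the difference between the mutant arrays, -1.98, became -0.86.

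Cdkn1b, encoding p27, was lowest on the NK1.1− mutant array, where Cdkn1a was highest. It read 2060 in NK1.1+ mutant, 578 in NK1.1− mutant and 1120 in control cells by its brightest probe set (1434045_at). The control value lay between the mutant values. NK1.1− mutant cells were 1.94-fold below control and NK1.1+ mutant cells 1.84-fold above, both short of 2-fold, and between the mutant arrays the difference was 3.57-fold, with 2.76% of measured genes further up on the NK1.1+ mutant array. With quantile normalization and with median centring the NK1.1+ mutant difference from control was called, at 1.07 and 1.32 on the log2 scale. The second Cdkn1b probe set was above the level only on the control array, at 11.2, and when both were averaged the difference between the mutant arrays was 0.88 and not called. Phagocyte markers were also high on the NK1.1+ mutant array, and their part in the Cdkn1b value was not tested. Cdkn1c, the remaining CIP/KIP gene, was below the level on all 3 arrays.

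Cdkn2c, encoding the INK4 inhibitor p18, was read by 1 probe set (1416868_at), at 119 in NK1.1+ mutant, 341 in NK1.1− mutant and 110 in control cells. The NK1.1− mutant array was the high one, 3.11-fold above control and 2.87-fold above NK1.1+ mutant cells, while NK1.1+ mutant and control cells were within 1.08-fold. Its call in NK1.1− mutant cells held under all 9 alternatives, with log2 differences of 1.40 to 1.64. Several of these could not change it. With 1 probe set well above the level, the changes of level and of probe set rule left the value as it was. A call at 1.5-fold cannot remove a call made at 2-fold. Cdkn2d, encoding the INK4 inhibitor p19 and also read by 1 probe set (1416253_at), read 126, 143 and 232. Both mutant values were below control, by 1.84-fold in NK1.1+ mutant and 1.62-fold in NK1.1− mutant cells, and neither passed 2-fold. The mutant arrays differed by 1.13-fold for Cdkn2d, a log2 difference of -0.18 that turned to 0.30 with median centring and 0.13 with quantile normalization. Of the INK4 genes outside the 10, Cdkn2a was below the level on all 3 arrays, and Cdkn2b, the INK4 gene best known as a TGF-β target, read 15.5, 15.1 and 12.4.

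Rbl2, encoding the pocket protein p130 that represses E2F genes in resting cells, read 362 in NK1.1+ mutant, 492 in NK1.1− mutant and 481 in control cells by its brightest probe set (1425981_a_at). No difference passed 2-fold, the largest being 1.36-fold between the mutant arrays. A second probe set (1418146_a_at) read 6.95, 36.3 and 56.03 and was at least 5.80-fold below control in NK1.1+ mutant cells. The mean of both probe sets gave -1.71 on the log2 scale for NK1.1+ mutant against control, which was called, whereas median centring of the brightest turned its -0.41 to 0.03, and its -0.44 between the mutant arrays to 0.04. Rb1 and Rbl1, the other pocket protein genes, read 657, 679 and 646 and 1302, 1672 and 1251, with no difference past 2-fold.

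**Figure D3:**
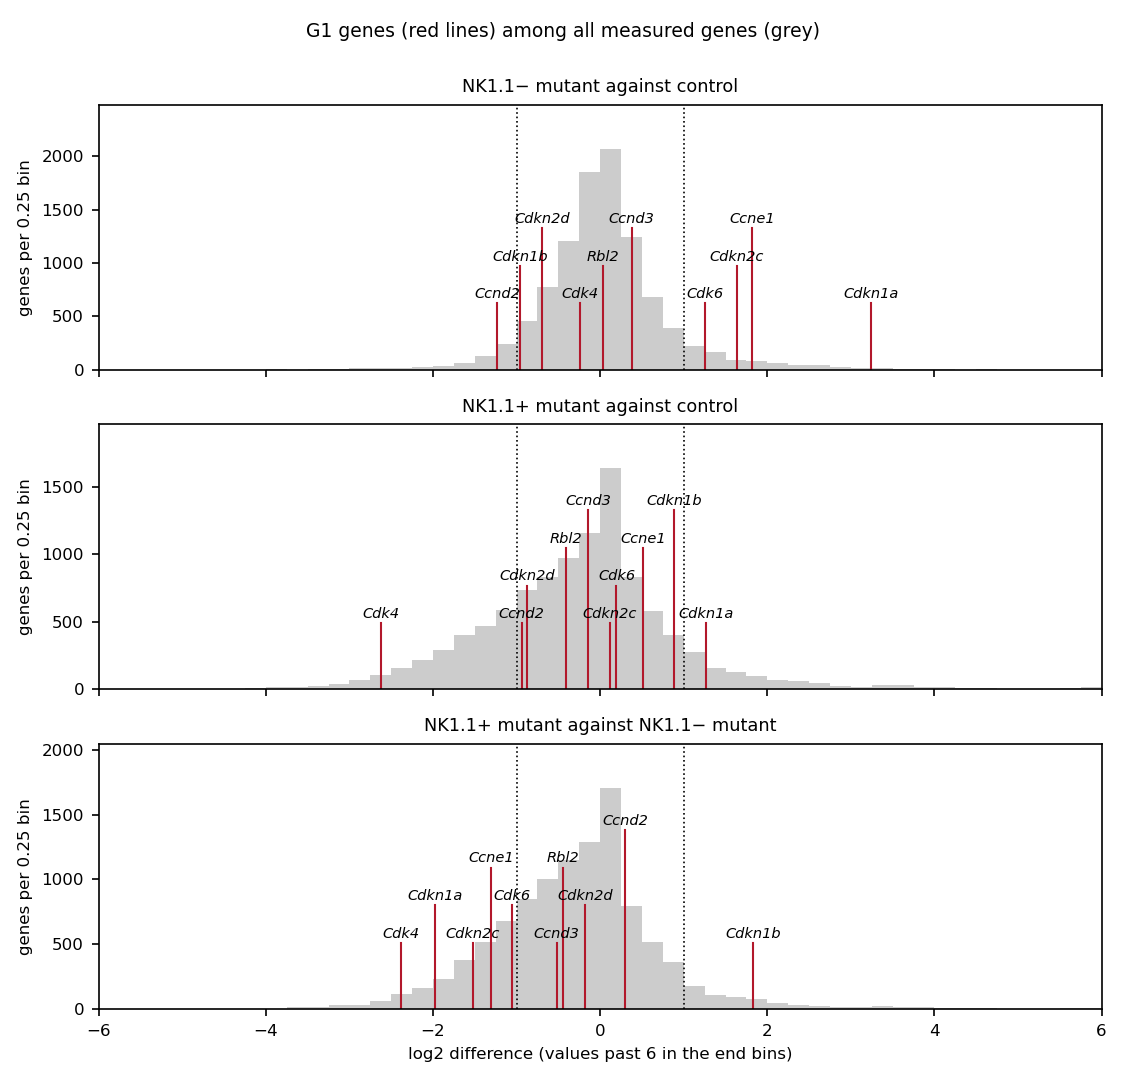
Number of measured genes per bin of log2 difference (grey bars) in the 3 comparisons, with the 10 G1 genes as labelled red lines and dotted lines at 2-fold. Cdkn1a is far out on the high side in NK1.1− mutant against control, where 0.40% of measured genes lie beyond it, and Cdk4 on the low side in both comparisons of the NK1.1+ mutant array.

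Around the 10 genes, lists of the same pathway were read beside all measured genes. In NK1.1− mutant against control, 8.05% of all measured genes were called higher and 5.56% lower. Other G1 machinery had 2 of 15 measured genes called higher and 0 lower there, with a median log2 difference of 0.26. That is near the 13.6% of all genes called in either direction. The 2 were Ccne2 and Cks1b, a partner of the ubiquitin ligase that degrades p27, at 6432 against 1981. The E2F and DP factors had 3 of 9 called higher and 0 lower (median 0.83). E2f7 and E2f8, repressors that are themselves switched on by E2F, read 122 against 11.1 and 679 against 88.1, and E2f2, an activator, 588 against 261. Of 7 genes of the MuvB complex, which regulates cell cycle genes, and of factors that bind it, 0 were called in any comparison. Over all measured genes, 13.6% and 32.7% were called in NK1.1− and NK1.1+ mutant against control, and 27.8% between the mutant arrays. A count of 0 among 7 genes says little beside such shares. Median centring gave 1 of the 7 called higher in NK1.1+ mutant against control. Some of them read near the background level, where a 2-fold difference can be missed. In NK1.1− mutant against control cells, Mybl2 read 10.7 against 6.71, Foxm1 14.2 against 9.38 and Lin52 12.1 against 12.1. The Mybl2 and Foxm1 differences from control are lower bounds. Rbbp4 (5630 against 6021), Lin54 (178 against 120) and Lin9 (75.8 against 61.6) lay well above the level.

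Of 18 measured genes that E2F switches on for S phase, 14 were called higher in NK1.1− mutant than in control cells and 0 lower (median 1.38). Of all measured genes, 8.05% were called higher and 5.56% lower. Tk1, encoding thymidine kinase, read 282 against 40.3, Rrm2, a subunit of ribonucleotide reductase, 6431 against 1237 and Cdc6, which loads the replicative helicase, 401 against 77.9. All 9 measured cyclin, kinase and mitosis genes of the S and M phase list were called higher (median 2.22), with Ccna2 at 437 against 49.3 and Aurkb, a mitotic kinase, at 312 against 44.07. These proliferation genes were known to be high on this array when the lists were drawn up, so the counts are no independent evidence of direction.

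In NK1.1+ mutant cells the same lists had medians below or near control. Over all measured genes, 22.9% were called lower than control and 9.85% higher, and the median was -0.17. Of 18 S phase genes, 1 was called higher (Mcm4, 2945 against 1215) and 6 lower, with Rrm1 at 90.8 against 619.8. The S phase median of -0.40 turned to 0.05 with median centring, with 3 called higher and 6 lower. Of 9 S and M phase genes, 0 were higher and 4 lower (median -0.80, and -0.36 with 2 lower with median centring), with Aurkb at 10.8 against 44.07 and Cdk1, the mitotic kinase gene, at 30.8 against 85.3. Other G1 machinery had 1 of 16 higher, Fbxw7, whose product marks cyclin E for destruction, at 598 against 273, and 4 lower. Cdc25a, a phosphatase that activates CDK2, was among the lower ones at 22.7 against 103, and median centring gave 2 higher and 2 lower. The E2F and DP factors had 0 of 9 higher and 3 lower, among them E2f6 at 27.1 against 165, and their median of -0.39 turned to 0.06 with median centring, with 1 higher and 2 lower. Between the mutant arrays, NK1.1+ cells were lower for 15 of 19 S phase genes (median -1.63), 9 of 9 S and M phase genes (median -3.46) and 6 of 9 E2F and DP factors (median -1.56), and higher for 0, 0 and 1. Of all measured genes, 21.3% were called lower there and 6.53% higher. Housekeeping genes were also lower on the NK1.1+ mutant array for 3 of 8 (median -0.80), and the part of the array in these counts was not tested.

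**Figure D4:**
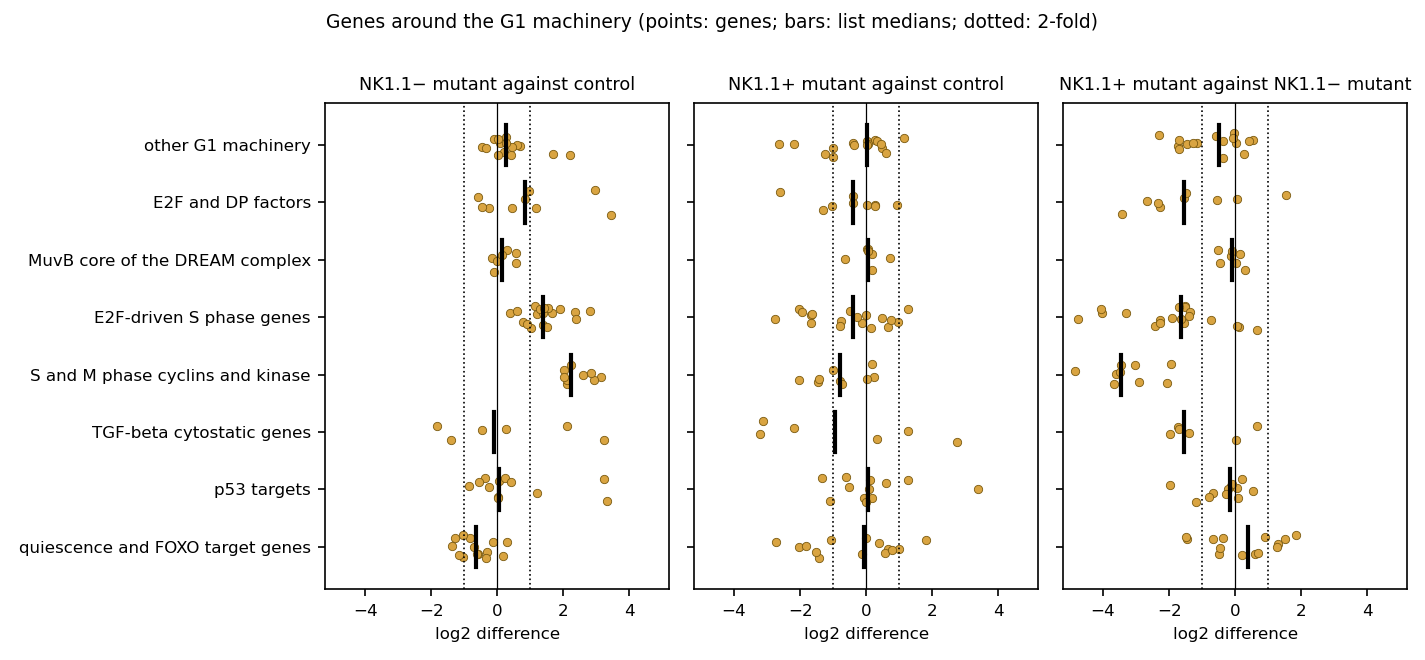
Log2 differences (horizontal axis) of measured genes in 8 lists around the G1 machinery, 1 point per gene with black bars at list medians and dotted lines at 2-fold, in the 3 comparisons. S phase and S and M phase genes lie to the right in NK1.1− mutant against control (medians 1.38 and 2.22) and to the left between the mutant arrays (-1.63 and -3.46).

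Genes of the arrest response that TGF-β is known for were called in both directions. Of 6 measured, 2 were called higher and 2 lower in NK1.1− mutant against control (median -0.10), beside 8.05% and 5.56% of all measured genes. In NK1.1+ mutant against control 2 were higher and 3 lower (median -0.93), beside 9.85% and 22.9%. With median centring the NK1.1+ mutant counts stayed at 2 and 3, with a median of -0.49. Myc, which TGF-β is known to repress in epithelial cells and which drives growth in G1, read 13.9 in NK1.1+ mutant, 45.9 in NK1.1− mutant and 120 in control cells. Id2, encoding an inhibitor of E proteins in effector T cells, read 13525, 8641 and 2010, and the related Id3, a gene of naive and memory cells, 16.6, 43.4 and 153. Both mutant arrays were below control for Myc and Id3 and above it for Id2. Cdkn1a also stands in this list and counts among the 2 higher genes.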

How the data were processed

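Groups were taken from the sample titles, and all 3 deposited columns belonged to a sample. The deposited table holds a linear intensity per probe set, between 2.60 and 57242, which per the submitters' processing notes came from GCRMA 1.1.3. Its settings, and any genome build, were not given in the sources used here. Symbols came from GEO's platform annotation (34945 probe sets with 1 symbol, 932 with several, 9160 with none, which were named for no gene), and the 10 genes matched RefSeq identifiers with 0 changed symbols. Of 178 names in the lists, 161 were on the array.

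The design foresaw linear or log2 values, so the linear intensities were put on the log2 scale. Differences are between single arrays and were called at 2-fold. A side below the background level makes a difference a lower bound. The caller was tested on simulated data, with changes planted on the mean of the 3 arrays in genes well above the level. The simulation held no shift of a whole array, so it does not show how calls hold on the NK1.1+ mutant array. Alternatives changed the level, the log offset, the normalization, the probe set rule and the fold. Named genes were the 10, Tgfbr2, and up to 4 per list and comparison with the largest absolute difference among genes measured on both arrays. Others named, such as Ccnd1, Cdk2, Cdkn1c, Cdkn2a, Cdkn2b, Rb1, Rbl1, Tob1 and marker genes, were chosen after their values were seen. The 10 genes and the lists were chosen with earlier results of these data known. Python 3.11.15, numpy 2.4.6 and pandas 2.3.3 were used.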

Additional observations from a re-analysis of the deposited data

Results flagged for a closer look

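Cdkn1b, encoding p27, moved in opposite directions in the 2 mutant fractions relative to the same control array, with log2 differences of -0.95 in NK1.1− mutant and 0.88 in NK1.1+ mutant cells. Both values are from the brightest probe set, and neither passed 2-fold. With both probe sets averaged they were -0.74 and 0.15. Each group has 1 array, so the difference between the fractions was not tested.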

How the results depend on the processing

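Of 270 recomputed differences of the 10 genes under 9 alternatives, 241 kept their call, 18 lost it, 10 gained one in the direction of the reported difference, and 1 gained one in the other direction. That one was Ccne1 in NK1.1+ mutant against control, at -1.05 with probe sets without a suffix preferred; the second probe set then replaces the first. In 13 further cases the sign changed with no call on either side, as for Cdk4 in NK1.1− mutant against control, from -0.24 to 0.17 with probe sets without a suffix preferred. Many of the 270 could not change, so the 241 do not measure robustness. All 10 genes read at or above the level on every array, so a floor of 1 left every difference as it was. The raised level moved only Cdkn1a. The probe set rules could not move Cdkn2c and Cdkn2d, read by 1 probe set each. The number of the 10 genes called in NK1.1+ mutant against control, 2 as reported, was 1 with the level raised to the 75th percentile, 1 with an offset of 32, 5 with a call at 1.5-fold and 1 at 3-fold. It was 3 under quantile normalization, under median centring, when a gene's probe sets were averaged, and when those without a suffix were preferred. A call at 3-fold left 3 genes in NK1.1− mutant against control and 3 between the mutant arrays. The share of all measured genes called ranged from 3.91% to 30.9% in NK1.1− mutant against control. Calls over all genes in NK1.1+ mutant against control, 1047 higher and 2430 lower, split 1320 and 1941 with quantile normalization and 1840 and 1510 with median centring. Between the mutant arrays 694 higher and 2261 lower became 941 and 1703, and 1472 and 1118. In NK1.1− mutant against control, 809 higher and 559 lower became 494 and 312 with the raised level, 473 and 238 with the offset of 32, and 533 and 356 when probe sets were averaged. No paired analysis was possible because each group has 1 array, and no replicate could be left out. Readings near the background level, such as those of Cdkn1a on the control array, limit the folds drawn from them.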

Other observations

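Genes of the resting state and targets of FOXO factors, which keep T cells out of division and are known to drive Cdkn1b, were called lower in NK1.1− mutant than in control cells for 5 of 14 measured and higher for 0 (median log2 difference -0.65). In that comparison 5.56% of all measured genes were called lower and 8.05% higher. In NK1.1+ mutant against control 6 of the 14 were lower and 2 higher (median -0.07), beside 22.9% and 9.85% of all measured genes. With median centring 4 of the 14 were lower and 5 higher (median 0.38). Foxo3, encoding such a factor, read 2059 in NK1.1+ mutant, 579 in NK1.1− mutant and 1301 in control cells, so that the control value lay between the mutant values, as for Cdkn1b. Tob1, an inhibitor of T cell proliferation, read 275, 115 and 186. Tsc22d3 read 28.4, 77.9 and 187 and Slfn2 881, 2461 and 3112, both lowest on the NK1.1+ mutant array. Between the mutant arrays 4 genes of the list were called higher in NK1.1+ cells and 2 lower (median 0.40), beside 6.53% and 21.3% of all measured genes. With median centring these counts were 7 and 0 (median 0.88). Foxo1 read 1081, 1405 and 2914 and S1pr1, a target of the FOXO-driven factor KLF2, 130, 210 and 539, both below control in each mutant fraction. Bcl6, a repressor of transcription, read 691, 241 and 196.

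Among p53 targets other than Cdkn1a, Pmaip1, encoding the death protein NOXA, read 358 in NK1.1+ mutant, 337 in NK1.1− mutant and 34.1 in control cells, 10.5-fold and 9.89-fold above control. Of 12 measured p53 targets, Cdkn1a included, 3 were called higher and 0 lower in NK1.1− mutant cells, with a median of 0.04. The shares over all measured genes were 8.05% and 5.56%. In NK1.1+ mutant cells 2 of the 12 were higher and 2 lower, with a median of 0.05, beside 9.85% and 22.9%. Cdkn1a counts among the higher genes in both comparisons. With median centring the NK1.1+ mutant counts became 3 higher and 0 lower, with a median of 0.40. Aen, a nuclease gene, read 92.0, 159 and 235, and Gadd45a 30.8, 35.8 and 65.4. Ccng1 read 3366, 3641 and 3546 and Mdm2, the p53 inhibitor gene, 35.8, 56.4 and 55.2, neither of them called in any comparison.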
